A study of Homo sapiens with 2 samples.

Results

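Collagens, laminins and integrins were read as 4 gene families in RNA sequencing of cells labelled BT549, a human triple-negative breast cancer line. The members are the 82 genes, of 43337 in the deposited table, whose symbols follow the naming of collagen chains (44 genes), laminin chains (12), integrin alpha chains (18) and integrin beta chains (8). A first library came from cells overexpressing SIK1 S435D, in which aspartate stands in place of a serine of the kinase SIK1, and a second from cells overexpressing wild-type (WT) SIK1. The labels give no vector, promoter or clone. There was 1 library per construct, so both libraries share the overexpression and no library without a construct was analysed here. Without replicates nothing was tested, and every interval covers counting error only. Fewer cells of a type and less RNA per cell cannot be told apart in such bulk libraries. The series title connects phosphorylation of SIK1 by Akt1 with STAT3 signalling, and the comparison asks how the phosphorylation-mimicking form differs from the wild-type protein.

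Collagens are built from 3 chains wound into a triple helix, which may be copies of a single gene product or of several. Laminins are trimers of an alpha, a beta and a gamma chain and form, with type IV collagen, the sheets of basement membranes. Integrins are receptors of an alpha and a beta chain that tie the cell to such ligands and signal inward. In carcinomas these genes are known for their part in invasion and in the anchorage of cells to matrix.

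The S435D library held 23520828 assigned reads and the WT library 22366506. SIK1 stood at 422 RPKM (reads adjusted for the gene's length and the library's size) in the S435D library and at 380 in the WT library, a level that may mix the construct and the endogenous gene. Among the receptors used to class the labelled tumour type, ESR1 had 0 and 1 read in the S435D and WT libraries, PGR had 0 in both, and ERBB2 stood at 10.05 and 10.6 RPKM. Of 9 mesenchymal markers 8 had a mean of at least 1 RPKM, with VIM at 113 RPKM in the S435D library and 116 in the WT library, while AXL was at 0.165 and 0.147. Of 10 epithelial markers 3 reached that level, with a summed level of 92.3 RPKM in the S435D library and 86.4 in the WT library. KRT8 stood at 47.7 and 45.5 RPKM and KRT18 at 41.4 and 37.5 in the S435D and WT libraries, EPCAM at 2.11 and 2.48, and CDH1 at 0.798 and 0.651. The fibronectin gene FN1 stood at 1.17 and 1.16 RPKM in the S435D and WT libraries. Other mesenchymal markers were higher, SNAI2 at 44.9 and 48.8 RPKM, SPARC at 12.9 and 14.7 and ZEB1 at 6.34 and 5.98. The epithelial markers KRT19, KRT5, KRT14 and ESRP1 had at most 3 reads in either library. With markers mixed in this way, the identity of the cells as BT549 was not tested. It is uncertain and rests on the labels. Of 7 fibroblast markers 1 had a mean of at least 1 RPKM, and DCN and FAP had 0 reads in both libraries. None of 5 endothelial and none of 3 platelet markers reached it, and of 8 leukocyte markers 2 did, with PTPRC at 0 reads in both. The part of other cells in the values below was not tested.

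The highest members were chains of laminin and of types VI and IV collagen, with ITGB1 the highest integrin chain, and their order was alike in both libraries. The 82 members together took 0.154% of reads in the S435D library and 0.159% in the WT library. LAMC1, COL6A1, LAMB1, COL4A2 and COL6A2 held 49.4% of the members' reads in the S435D library and 49.0% in the WT library. Of the 82 members 32 averaged 1 RPKM or more across the pair of libraries and are called expressed here, 46 had reads below that level, and 4 had none in either library.

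Among the 32 expressed members, 8 were higher and 24 lower in the S435D library. Among all 13290 expressed genes, 42.9% were higher and 57.1% lower, and among the 9758 that code for protein, a comparison chosen once the values were known, 43.4% and 56.6%. Folds are S435D RPKM over WT RPKM, and log2 ratios were taken after adding 0.5 RPKM to each side. The median log2 ratio was -0.046 over the members and -0.024 over all expressed genes, and the members ran from -0.35 to 0.14. The number of members below 0 became 20 when ratios were centred on the median of all genes and 19 when scaled by a trimmed mean, but 31 when both libraries were rescaled to the same RPKM total. That rescaling lowers the ratio of every gene, and centring balances all expressed genes around 0 by construction. The shares of all expressed genes below 0 under these scalings were not taken, so these counts describe the members only. No member passed 1.2-fold upward in the S435D library, as 4.43% of all expressed genes did (1.58% of those coding for protein). A single member, ITGA7, passed it downward, against 7.92% of all expressed genes (3.3% of those coding for protein). ITGA7, like ITGA6, reached a mean of 1 RPKM only through the WT library, where it was higher, so this call is a description and carries no support. The counting interval of the fold lay above 1 for 0 members and below 1 for 2, ITGA7 and COL27A1. Over all expressed genes these shares were 8.71% above 1 and 14.7% below it, and over the protein-coding ones 9.73% and 15.9%. Rescaled to equal RPKM totals, 13 members (40.6%) had an interval below 1, against 27.2% of all expressed genes and 30.5% of the protein-coding ones. The median number of reads over both libraries was 971.5 for expressed members and 874 for all expressed genes.

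**Figure D1:**
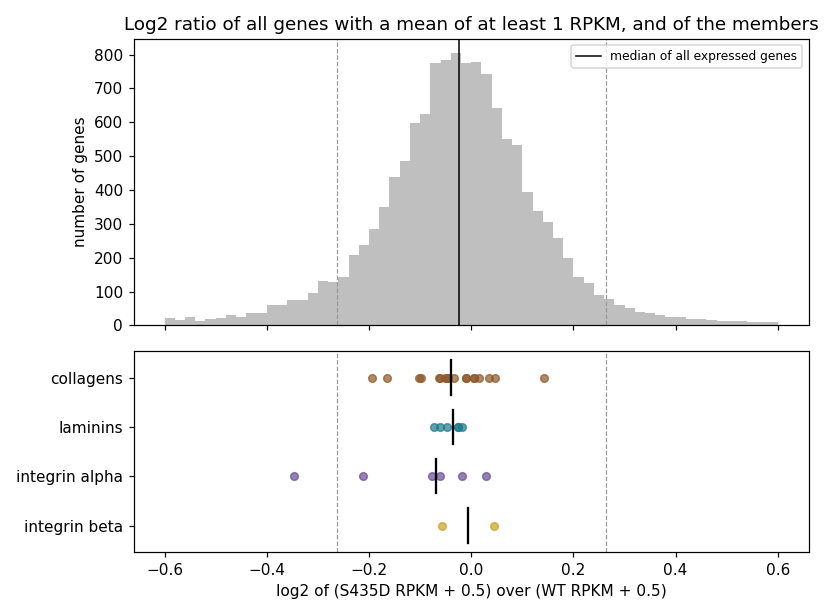
The upper panel counts all 13290 expressed genes by the log2 ratio of S435D over WT, with 333 genes beyond 0.6 on either side not drawn, and the lower panel shows the 32 expressed members by family with a bar at each family's median. Dashed lines mark 1.2-fold, which only ITGA7, at -0.35, passes among the members.

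**Figure D2:**
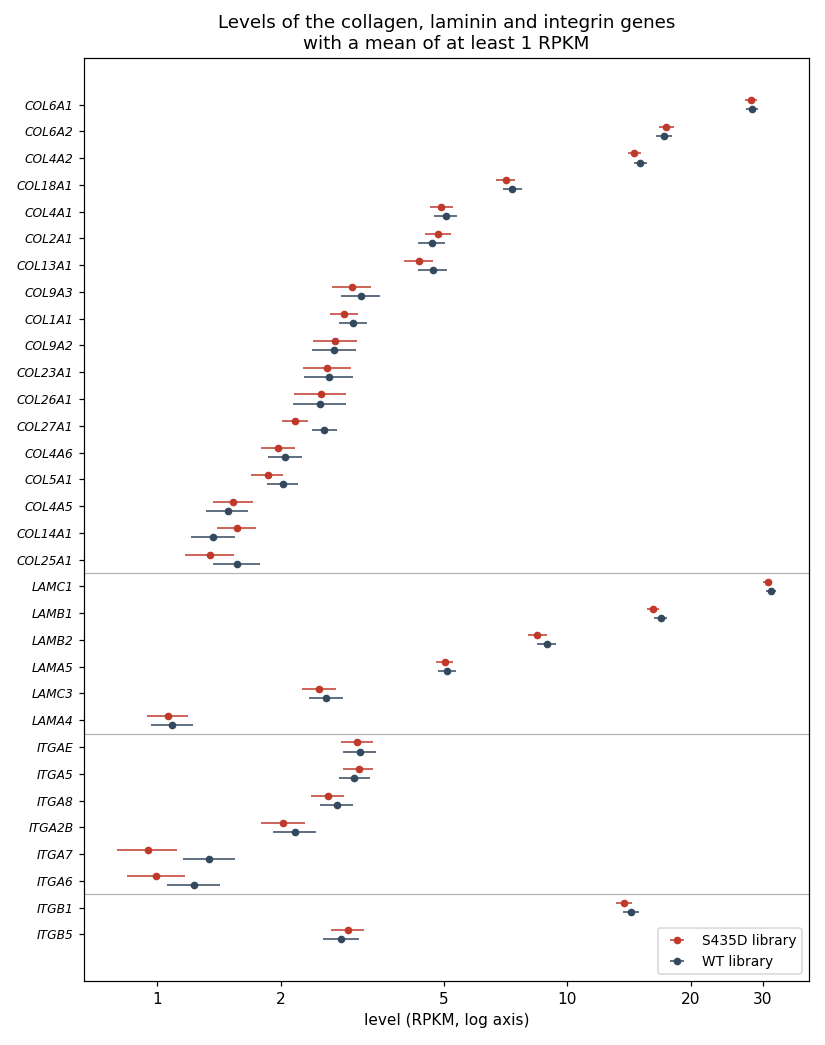
Level of each expressed member in RPKM on a log axis, with exact Poisson 95% intervals of its reads, the S435D library above the WT library in each row. LAMC1 and COL6A1 lead in both libraries, and the intervals of both libraries overlap for every gene but COL27A1 and ITGA7.

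The type IV collagens, the network formers of basement membranes, lie as 3 pairs of genes that start head to head and run in opposite directions. Levels differed between the pairs and also between the partners of a pair. Bases between the starts are shown first, a part of the distance in each pair, and no link of these bases to the levels was tested. They come from RefSeq promoter records on GRCh38.p14, in which 58 of the 82 members had a record, and are read on the plus strand, 5′ to 3′. They lie outside the exons that the deposited table gives these genes; GENCODE 29 starts some transcripts of COL4A1, COL4A2 and COL4A4 inside them. Capitals mark a CCAAT box (CCAAT or its complement ATTGG) or a GC box (GGGCGG or CCGCCC).
COL4A1/COL4A2 (chr13:110307158-110307266): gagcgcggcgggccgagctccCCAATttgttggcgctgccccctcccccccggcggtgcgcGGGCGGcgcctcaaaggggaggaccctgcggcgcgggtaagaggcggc
COL4A6/COL4A5 (chrX:108439588-108439837): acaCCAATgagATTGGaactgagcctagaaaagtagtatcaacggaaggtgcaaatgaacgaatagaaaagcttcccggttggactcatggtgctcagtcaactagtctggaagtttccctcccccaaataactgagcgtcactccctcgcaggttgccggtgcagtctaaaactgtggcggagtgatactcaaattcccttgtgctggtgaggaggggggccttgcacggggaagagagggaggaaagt
COL4A4/COL4A3 (chr2:227164374-227164564): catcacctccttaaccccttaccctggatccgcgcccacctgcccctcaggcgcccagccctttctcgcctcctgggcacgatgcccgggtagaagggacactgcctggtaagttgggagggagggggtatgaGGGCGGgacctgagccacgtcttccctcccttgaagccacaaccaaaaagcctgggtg

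The RefSeq starts of COL4A1 and COL4A2 are 126 bases apart, those of COL4A6 and COL4A5 379, and those of COL4A4 and COL4A3 418. The printed bases number 109, 250 and 191, and the rest of each distance was not searched. The printed COL4A1/COL4A2 stretch is 78.0% G and C, and 89.3% of 35116 promoter records are lower over a window of that length. The printed COL4A6/COL4A5 stretch is 51.2%, with 34.5% of records lower, and the printed COL4A4/COL4A3 stretch 63.9%, with 66.1% lower. A CCAAT box occurred 1 time in the COL4A1/COL4A2 stretch and 2 times in the COL4A6/COL4A5 stretch, where 19.8% and 32.0% of promoter windows of the same length hold one on either strand, and 0 times in the COL4A4/COL4A3 stretch. A GC box occurred 1 time in the COL4A1/COL4A2 stretch and 1 time in the COL4A4/COL4A3 stretch, against 31.4% and 33.2% of windows, and 0 times in the COL4A6/COL4A5 stretch. None of the printed stretches held TATAAA on either strand, which 5.54%, 10.7% and 7.42% of windows of those lengths do. A match in these letters is a description and not a binding site.

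COL4A1 and COL4A2, whose products form the common type IV network, were the highest of the 3 pairs. COL4A2 stood at 14.6 RPKM (2984 reads) in the S435D library and at 15.1 RPKM (2935 reads) in the WT library. COL4A1 stood at 4.93 RPKM (949 reads) in the S435D library and 5.06 RPKM (926 reads) in the WT library. The COL4A2 level was 2.96 times that of COL4A1 in the S435D library (95% counting interval 2.75 to 3.18) and 2.98 times in the WT library (2.77 to 3.21), so the partners of the pair were unequal by the same factor in both. Antisense RNAs COL4A2-AS1 and COL4A2-AS2 share 81 and 14 exon bases with COL4A2, and since no strand setting is given in the sources used here, their reads cannot be told apart in those bases.

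COL4A6 and COL4A5, which join in the basement membranes of smooth muscle and some epithelia, lay lower. COL4A6 was at 1.97 RPKM in the S435D library and 2.05 in the WT library, and COL4A5 at 1.53 and 1.48. COL4A4 and COL4A3, the partners of COL4A5 in the glomerular network, were close to 0. COL4A4 had 15 reads in the S435D library and 16 in the WT library, and COL4A3 had 4 and 3. Of the 4 expressed type IV genes 1 was higher and 3 lower in the S435D library, their folds lying between 0.962 (0.840 to 1.103) for COL4A6 and 1.03 (0.878 to 1.22) for COL4A5, which turned below 1 when both libraries were rescaled to the same RPKM total. Every interval held 1 under the deposited scaling, and that of COL4A2 lay below 1 under that rescaling (0.926, 0.880 to 0.975).

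Type VI collagen, which forms beaded filaments near cell surfaces, was the most abundant collagen, but unevenly over its chains. COL6A1 (chromosome 21, 45981737 to 46005050, plus strand) stood at 28.1 RPKM in the S435D library and 28.3 in the WT library. COL6A2 stood at 17.4 RPKM in the S435D library and 17.2 in the WT library. COL6A3, the large chain of the classical trimer, was at 0.119 RPKM (55 reads) in the S435D library and 0.169 RPKM (74 reads) in the WT library. COL6A2 exceeded it 146 times (112 to 195) in the S435D library and 102 times (81.1 to 131) in the WT library. Chains that can take its place were also low, COL6A5 at 0.381 and 0.382 RPKM and COL6A6 at 0.0831 and 0.0736 RPKM in the S435D and WT libraries.

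The fibrillar collagens, which make the banded fibres of connective tissue, had 4 expressed members of 11. COL2A1, the main collagen of cartilage, was at 4.85 RPKM in the S435D library and 4.68 in the WT library (fold 1.04, 0.933 to 1.15). COL1A1 (chromosome 17, 50183289 to 50201632, minus strand), which encodes the more frequent chain of type I collagen, was at 2.86 RPKM in the S435D library and 3.001 in the WT library. Its partner COL1A2 had 1 read in the S435D library and 2 in the WT library. The COL1A1 level was thus 750 times that of COL1A2 in the S435D library (134 to 29662) and 374 times in the WT library (103 to 3098), with wide intervals because so few COL1A2 reads were counted.

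COL27A1 (chromosome 9, 114155560 to 114312511, plus strand), a fibrillar collagen of cartilage, had the only interval away from 1 among the 18 expressed collagens under the deposited scaling. It stood at 2.17 RPKM (714 reads) in the S435D library and 2.55 RPKM (799 reads) in the WT library, a fold of 0.850 (0.767 to 0.941). COL5A1, a chain that nucleates type I fibrils, was at 1.86 and 2.03 RPKM in the S435D and WT libraries (0.917, 0.808 to 1.04). The remaining fibrillar genes were below 1 RPKM. COL24A1 had 101 reads in the S435D library and 115 in the WT library, COL5A2 had 85 and 61, and COL11A2 had 57 and 45. COL3A1 had 41 and 38 reads.

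Among FACIT collagens, which sit on the surface of fibrils, 3 of 10 were expressed. The type IX chains COL9A3 and COL9A2, which in cartilage decorate type II fibrils, were at nearly equal levels. COL9A3 stood at 2.98 RPKM in the S435D library and 3.14 in the WT library, and COL9A2 at 2.71 and 2.70. COL9A1, the third chain of that trimer, had 7 reads in each library, and COL9A2 exceeded it 64.4 times (30.8 to 162) in the S435D library and 60.98 times (29.2 to 153) in the WT library. COL14A1, which binds fibrils of type I collagen, had the highest fold of the 18 expressed collagens, at 1.56 RPKM in the S435D library and 1.37 in the WT library (1.14, 0.966 to 1.35), and its interval holds 1. For COL20A1 and COL22A1 no read was counted in either library. A count of 0 allows 3 reads, or 0.0116 and 0.0163 RPKM in the S435D library and 0.0122 and 0.0171 in the WT library.

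The transmembrane collagens, which are anchored in the plasma membrane, had 3 expressed members of 4. COL13A1, found at cell-matrix adhesions, was at 4.34 RPKM in the S435D library and 4.70 in the WT library (0.924, 0.824 to 1.04). COL25A1 was at 1.34 and 1.57 RPKM (0.857, 0.708 to 1.04), and COL23A1 at 2.60 and 2.62 RPKM (0.992, 0.817 to 1.204). All 3 were lower in the S435D library under the deposited scaling, but COL23A1 turned above 1 when centred on the median or scaled by a trimmed mean. COL17A1, the hemidesmosomal collagen of basal epithelial cells, had 2 reads in each library.

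COL18A1, a multiplexin of basement membranes whose C-terminal fragment is endostatin, stood at 7.07 RPKM in the S435D library and 7.34 in the WT library (0.963, 0.894 to 1.04). Of its exon bases 16.4% are shared with SLC19A1 on the other strand, at 4.78 and 4.83 RPKM in the S435D and WT libraries, so its level is uncertain. COL15A1, the other multiplexin, had 5 and 7 reads. COL26A1 was at 2.51 and 2.49 RPKM in the S435D and WT libraries. COL7A1, which forms the anchoring fibrils beneath epithelia, was below 1 RPKM with 167 reads in the S435D library and 211 in the WT library (0.753, 0.611 to 0.926).

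Over the 18 expressed collagens, 6 were higher and 12 lower in the S435D library, and their median log2 ratio was -0.039. Of those 6, COL2A1, COL4A5, COL6A2, COL9A2 and COL26A1 turned below 1 when both libraries were rescaled to the same RPKM total, and COL6A1 and COL23A1 turned above 1 when centred or trimmed. That rescaling also put the intervals of 7 of the 18 below 1, those of COL27A1, COL4A2, COL6A1, COL18A1, COL13A1, COL5A1 and COL25A1. In the order of their levels, 12 of 17 neighbours in the S435D library and 11 of 17 in the WT library had overlapping counting intervals. COL6A1, COL6A2, COL4A2 and COL18A1 stood apart from their neighbours in both libraries. From COL9A3 down to COL5A1 each collagen's interval overlapped that of the next in both. COL25A1 was last in the S435D library and COL14A1 last in the WT library, but their counting intervals overlapped in both, so their order is not told apart.

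**Figure D3:**
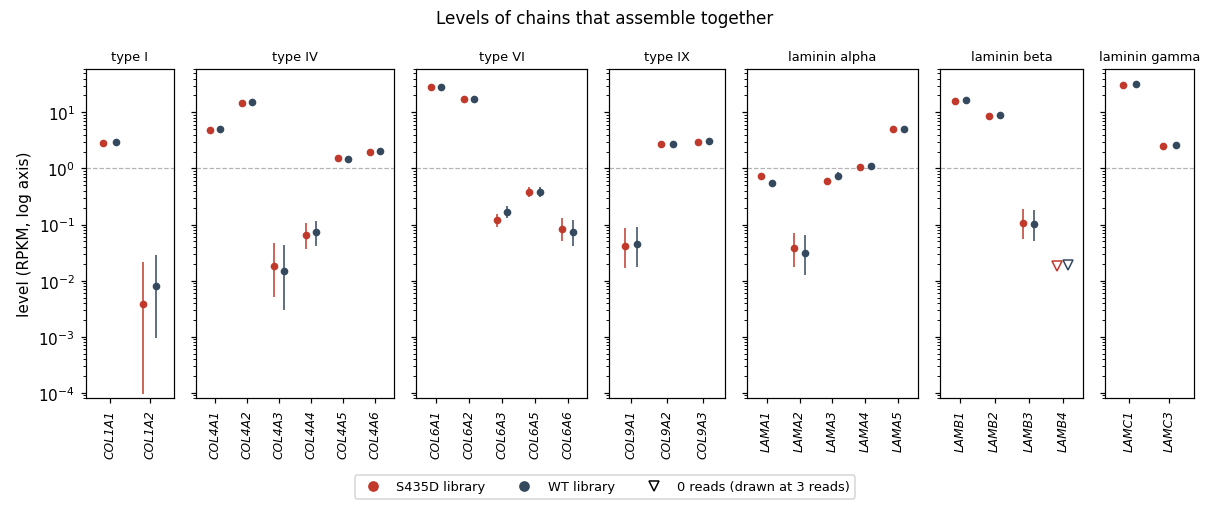
Level in RPKM on a log axis of the chains of types I, IV, VI and IX collagen and of most laminin chains, with Poisson 95% intervals, the S435D library left of the WT library, a dashed line at 1 RPKM and open triangles at 3 reads for genes with none. COL1A2, COL6A3 and COL9A1 lie far below their partner chains in both libraries.

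Of the 12 laminin chains 6 were expressed, with a single gamma chain well ahead. LAMC1 (chromosome 1, 183023460 to 183145592, plus strand), the gamma chain of most laminins, was the most abundant member of all, at 30.8 RPKM (6098 reads) in the S435D library and 31.4 RPKM (5902 reads) in the WT library. LAMB1 was at 16.2 RPKM in the S435D library and 16.9 in the WT library, and LAMB2 at 8.45 and 8.92. LAMA5, an alpha chain of many epithelial and endothelial basement membranes, led the alpha chains at 5.02 and 5.09 RPKM in the S435D and WT libraries. LAMC3 followed at 2.49 and 2.59 RPKM and LAMA4, the alpha chain of vascular and mesenchymal laminins, at 1.06 and 1.09. None of the 5 pairs of neighbours in this order overlapped in either library.

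LAMC1 exceeded LAMA5 6.14 times (5.82 to 6.48) in the S435D library and 6.16 times (5.83 to 6.51) in the WT library. LAMB1 exceeded LAMB2 1.91 times (1.80 to 2.04) in the S435D library and 1.89 times (1.78 to 2.02) in the WT library. These ratios between chains therefore differed little beside their intervals.

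All 6 expressed laminins were lower in the S435D library under the deposited scaling, with folds between 0.947 and 0.986 and a median log2 ratio of -0.036. Centring on the median of all genes turned LAMA5 above 1, and scaling by a trimmed mean turned LAMA5 and LAMC1. Each of the 6 intervals held 1 under the deposited scaling, the nearest to it being that of LAMB1 (0.958, 0.911 to 1.01). Rescaled to equal RPKM totals, LAMC1 (0.941, 0.908 to 0.976), LAMB1 (0.917, 0.873 to 0.965) and LAMB2 (0.908, 0.841 to 0.979) had intervals below 1. LAMB1 and LAMA5 share 3.57% and 2.52% of their exon bases with other genes, among them ADRM1 at 88.3 RPKM in the S435D library and 82.5 in the WT library, over 244 bases of LAMA5.

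LAMA3 and LAMB3, which help to anchor basal epithelial cells, were both below 1 RPKM. LAMA3 had 189 reads in the S435D library and 225 in the WT library (0.799, 0.655 to 0.974), and LAMB3 had 12 and 11. LAMA1 (chromosome 18, 6941744 to 7117814, minus strand), the alpha chain of early embryonic basement membranes, went the other way, with 270 reads in the S435D library and 196 in the WT library, or 0.723 and 0.552 RPKM (1.31, 1.09 to 1.58). LAMA1 shares 1641 exon bases with RP11-781P6.1 on the other strand, which had 12 reads in the S435D library and 10 in the WT library. LAMA2, the laminin chain of muscle, had 9 and 7 reads in the S435D and WT libraries, and LAMB4 had none.

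Among the integrins, ITGB1 (chromosome 10, 32900319 to 33005792, minus strand), the beta chain shared by most matrix receptors, held 79.5% of the summed beta level in the S435D library and 80.4% in the WT library. It stood at 13.7 RPKM (1941 reads) in the S435D library and 14.3 RPKM (1923 reads) in the WT library, a fold of 0.960 (0.901 to 1.02), or 0.919 (0.863 to 0.980) when rescaled to equal RPKM totals. The 12 alpha chains known to pair with it summed to 11.2 RPKM in the S435D library and 11.8 in the WT library, so that ITGB1 was 1.23 and 1.22 times their sum. Such ratios between genes depend on the deposited gene lengths, such as 6011 bases for ITGB1 and 18566 for ITGA1. ITGB5, which pairs with ITGAV in a vitronectin receptor, was at 2.91 and 2.81 RPKM in the S435D and WT libraries (1.04, 0.905 to 1.19), a direction that rescaling both libraries to the same RPKM total reversed. The other 6 beta chains were below 1 RPKM. ITGB4, the laminin-binding chain of hemidesmosomes, had 46 reads in the S435D library and 42 in the WT library, ITGB3 had 24 and 11 (2.07, 0.978 to 4.69), and ITGB2, the leukocyte chain, had 7 and 19 (0.350, 0.124 to 0.870). Of the exon bases of ITGB3 51.6% are shared with RP11-290H9.2, and ITGB6 had 0 reads in both libraries.

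**Figure D4:**
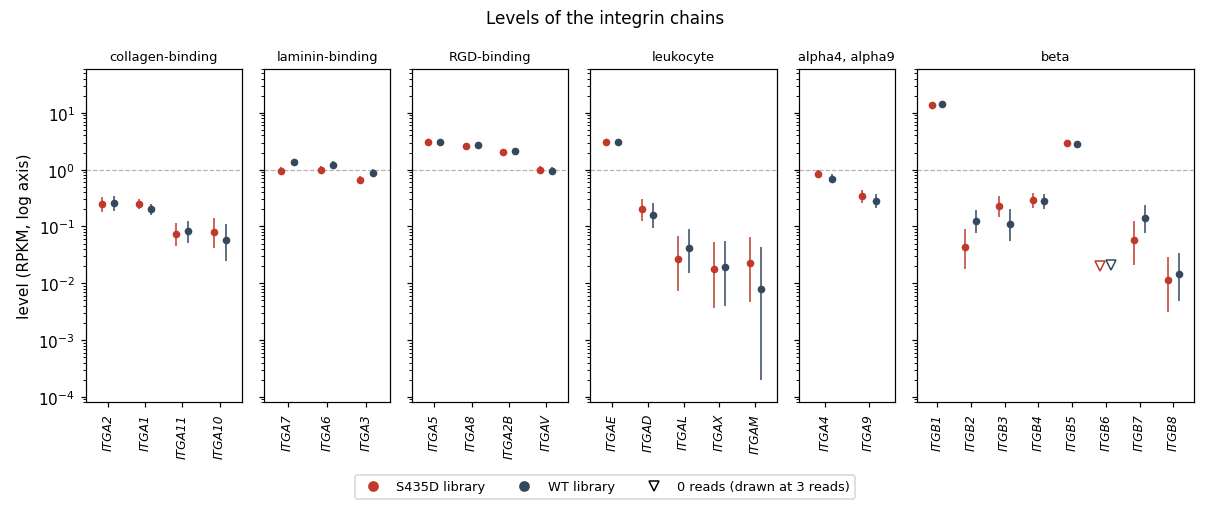
Level in RPKM on a log axis of the 18 integrin alpha chains by ligand class and the 8 beta chains, with Poisson 95% intervals, the S435D library left of the WT library, a dashed line at 1 RPKM and open triangles at 3 reads for ITGB6. ITGB1 stands above all other chains, and ITGA7, ITGA6 and ITGA3 are each lower in the S435D library.

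The 3 laminin-binding alpha chains were each lower in the S435D library. ITGA7 (chromosome 12, 55684568 to 55716043, minus strand), known as the laminin receptor of muscle, stood at 0.947 RPKM (142 reads) in the S435D library and 1.34 RPKM (191 reads) in the WT library, a fold of 0.707 (0.565 to 0.883). ITGA6, which pairs with ITGB1 or ITGB4, stood at 0.996 RPKM (153 reads) in the S435D library and 1.23 RPKM (180 reads) in the WT library (0.808, 0.647 to 1.01). ITGA3, below the level called expressed, had 154 reads in the S435D library and 192 in the WT library (0.763, 0.613 to 0.948). All 3 stayed lower under each of the 3 other scalings tried, which could not have turned them. The trimmed mean raised S435D by a factor of only 1.02, centring by less, and rescaling to equal RPKM totals lowered it. The interval of ITGA6 held 1 except under that rescaling (0.774, 0.620 to 0.966). ITGA7 and ITGA6 reached a mean of 1 RPKM only through the WT library, and the scalings of ITGA3 were added after the values had been seen. ITGA7 shares 0.816% of its exon bases with other genes, mostly METTL7B at 7.54 RPKM in the S435D library and 7.07 in the WT library, and ITGA6 shares 5.37%. Laminin-binding chains were read as a class because of their ligand, and no test of the class was made.

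Chains that bind the RGD motif of fibronectin and vitronectin were at similar levels in both libraries. ITGA5, the fibronectin receptor chain, was at 3.10 RPKM in the S435D library and 3.03 in the WT library (1.02, 0.906 to 1.16), and ITGA8, which binds nephronectin, at 2.61 and 2.74 RPKM (0.951, 0.834 to 1.08). ITGA2B, the alpha chain of the platelet fibrinogen receptor, was at 2.03 and 2.17 RPKM in the S435D and WT libraries. Its partner ITGB3 lay 8.74 times lower (5.75 to 13.9) in the S435D library and 19.4 times lower (10.6 to 39.2) in the WT library. ITGAV, just below the level called expressed, was at 1.005 RPKM (194 reads) in the S435D library and 0.958 RPKM (176 reads) in the WT library.

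ITGAE, an alpha chain of lymphocytes that binds E-cadherin, was among the highest alpha chains, at 3.08 RPKM in the S435D library and 3.12 in the WT library (0.986, 0.866 to 1.12). ITGB7, the beta chain it pairs with, had 6 reads in the S435D library and 14 in the WT library, and shares 42.1% of its exon bases with ZNF740. Of the exon bases of ITGAE 427 are shared with GSG2, a gene on the other strand at 10.05 and 9.77 RPKM in the S435D and WT libraries, so the level of ITGAE is uncertain. The other leukocyte alpha chains ITGAD, ITGAL, ITGAX and ITGAM held 31 reads together in the S435D library and 26 in the WT library. None of the 4 collagen-binding alpha chains was expressed. ITGA1 had 110 reads in the S435D library and 84 in the WT library, ITGA2 46 and 45, ITGA11 19 and 20, and ITGA10 12 and 8. ITGA4 had 157 and 123 reads (1.21, 0.953 to 1.55) in the S435D and WT libraries, and ITGA9 66 and 53.

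Of the 6 expressed alpha chains 1 was higher and 5 lower in the S435D library. Their median log2 ratio was -0.069, and ITGAE turned above 1 under centring and under trimmed-mean scaling, while ITGA5 turned below 1 under rescaling to equal RPKM totals. The 2 expressed beta chains lay on either side of equality. In the order of levels, the intervals of ITGA5 and ITGAE overlapped in both libraries, as did those of ITGA6 and ITGA7.

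**Figure D5:**
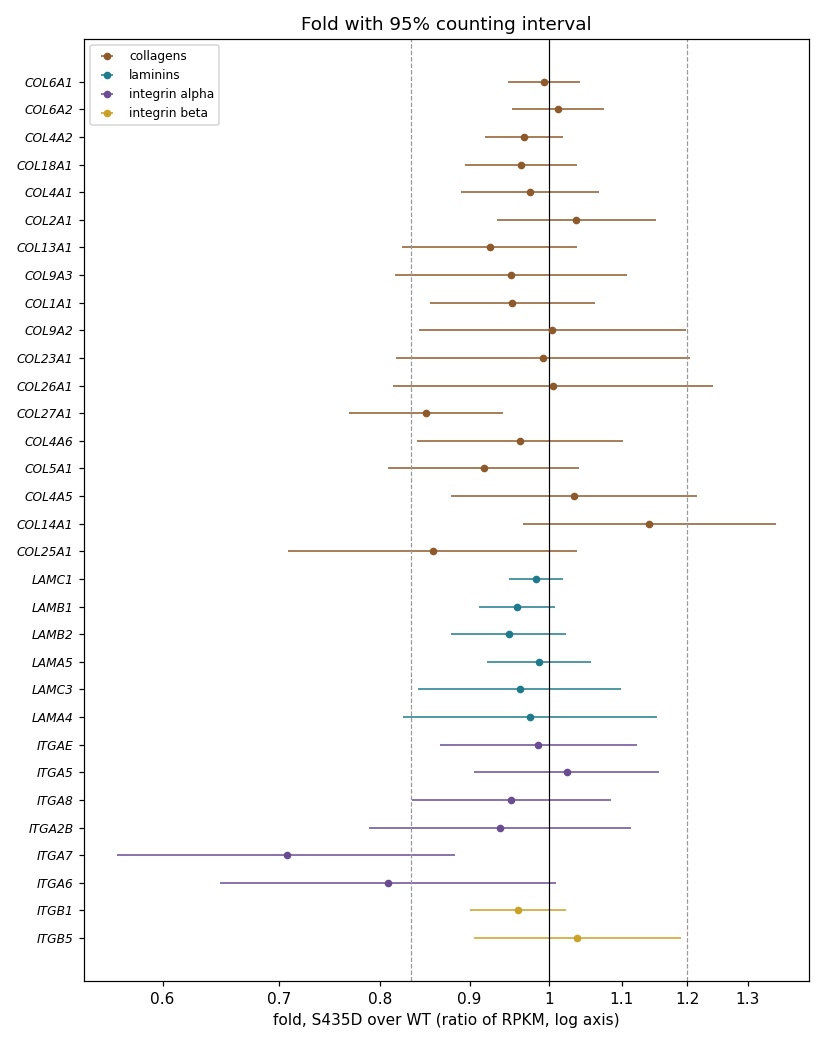
Fold of S435D over WT for each expressed member on a log axis, with exact conditional binomial 95% counting intervals, coloured by family, and dashed lines at 1.2-fold in each direction. Under the deposited scaling shown, the intervals of ITGA7 and COL27A1 lie below 1 and all others hold it.

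Of the 46 members with reads below the level called expressed, 1 had a counting interval above 1 (LAMA1) and 4 below it (ITGA3, LAMA3, COL7A1 and ITGB2). Over the 15036 genes of the table in that range the shares were 1.51% and 2.63%, and over the protein-coding ones 2.32% and 4.01%, against 2.17% and 8.70% of these members. These members held a median of 35 reads over both libraries, and all genes in that range 7.

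Genes that act with the members were read from 5 further lists, under the deposited scaling only. For each list, the values over all expressed genes were a median log2 ratio of -0.024, with 8.71% of intervals above 1 and 14.7% below it. Of all expressed genes 4.43% passed 1.2-fold upward and 7.92% downward. Of 24 expressed enzymes and chaperones of collagen folding and cross-linking, among 33 in the table, 11 were higher and 13 lower in the S435D library. Their median log2 ratio was -0.013, with 3 intervals above 1 and 3 below it. BMP1, the protease that removes the C-terminal propeptide of procollagens, was at 2.999 RPKM in the S435D library and 2.41 in the WT library (1.247, 1.09 to 1.42) and was the only gene of the 5 lists past 1.2-fold. The prolyl 4-hydroxylase subunits P4HA3 and P4HA1, which stabilise the triple helix, lay on opposite sides. P4HA3 was at 17.5 RPKM in the S435D library and 14.8 in the WT library (1.18, 1.096 to 1.27), and P4HA1 at 8.60 and 10.2 RPKM (0.846, 0.758 to 0.943).

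Of 6 expressed partners in basement membranes 5 were higher and 1 lower, with 0 intervals above 1 and 1 below it and a median of 0.017. Their log2 ratios ran from -0.19 to 0.062, and rescaling to equal RPKM totals lowers S435D by 0.062 on that scale. Their directions under that rescaling were not read. NID1, which links laminin to type IV collagen, was at 13.8 RPKM in the S435D library and 13.4 in the WT library (1.03, 0.961 to 1.095), and AGRN, a heparan sulfate proteoglycan, at 2.47 and 2.35. SMOC1, a calcium-binding matrix protein, was at 7.06 and 8.14 RPKM in the S435D and WT libraries (0.868, 0.784 to 0.962). Of 7 expressed other integrin ligands 3 were higher and 4 lower, with 1 interval above 1 and 0 below it and a median of -0.031. MFGE8, an RGD protein that bridges cells to phosphatidylserine, was at 6.02 and 5.39 RPKM in the S435D and WT libraries (1.12, 1.02 to 1.23), FBLN5 at 2.21 and 2.53, and LTBP1 at 1.49 and 1.71.

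Of 14 expressed other matrix receptors 6 were higher and 8 lower, with 0 intervals above 1 and 1 below it and a median of -0.038. The syndecans were the farthest from equality, SDC2 at 13.98 RPKM in the S435D library and 15.8 in the WT library (0.885, 0.824 to 0.950), SDC4 at 4.41 and 3.90, and SDC1 at 10.02 and 10.8. Of 24 expressed proteins of integrin adhesions 12 were higher and 12 lower, with a median of -0.002. Their intervals lay above 1 for 3 and below it for 1, against 8.71% and 14.7% of all expressed genes. SRC, the kinase activated at adhesions, was at 5.30 RPKM in the S435D library and 4.67 in the WT library (1.13, 1.02 to 1.26). ITGB1BP1, which competes with talin for the tail of beta1, was at 4.603 and 5.16 RPKM in the S435D and WT libraries (0.892, 0.805 to 0.988), and LIMS1, an adaptor of integrin-linked kinase, at 2.23 and 2.54.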

How the data were processed

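RNA was sequenced from 1 library per construct. The authors deposited 1 table of RPKM with gene positions and lengths, per the file headers. No source used here names an aligner, counter, strand setting, build or annotation. Multiplying RPKM by length gave whole reads for 100% of values, within 0.01 of a read. Positions of 69 of the 82 members equal those of GENCODE 29 (GRCh38).

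Folds are ratios of RPKM with 95% intervals (Clopper-Pearson, conditional on both libraries' reads). Levels have exact Poisson intervals. Orders and ratios of levels between genes also depend on the deposited gene lengths, and no interval covers error in those lengths. A count of 0 allows 3 reads. Ratios used a pseudocount of 0.5 RPKM, genes averaging 1 RPKM or more counted as expressed, and a 1.2-fold rule of size replaced a test. The procedure was tested on simulated counts with Poisson error only, so variation between libraries of the same construct was not part of that test. The trimmed mean left out 30% of log ratios at each end.

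Every expressed member is named, with the 3 members farthest from a log2 ratio of 0 in each related list. Other members were named by reads, by interval, for their role or as partner chains, and markers after their values were seen. Some items are not reported here. Members, lists and rules were chosen with earlier results of these data known. Tools were SciPy 1.17.1 and pandas 2.3.3 for the values and matplotlib 3.10.9 for the plots, under Python 3.11.15 with numpy 2.4.6.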

Additional observations from a re-analysis of the deposited data

How the results depend on the processing

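With 1 library per construct, no value could be checked against replicates, and no paired analysis was possible because each construct had a single library. The median log2 ratio stayed below 0 under all alternatives tried for collagens (-0.092 to -0.011), laminins (-0.092 to -0.012) and integrin alpha chains (-0.12 to -0.0081). That of the integrin beta chains, from 2 genes, ran from -0.062 to 0.046. Another pseudocount cannot turn the sign of a gene's ratio, and rescaling to equal RPKM totals lowers S435D. Those alternatives could not have turned the medians of collagens, laminins and alpha chains. Under the deposited scaling the median over all expressed genes was below 0 as well (-0.024). No alpha chain had a mean of at least 5 RPKM, so that filter gave no value for them.

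Members past the fold in the lower direction numbered 4 at 1.1-fold, 0 at 1.5-fold, 2 with a pseudocount of 0.1 RPKM, 0 at a mean of at least 5 RPKM and 0 without members that share exon bases with other genes, and 1 was higher at 1.1-fold. Without a filter, 6 members had an interval below 1 and 1 above it. Intervals below 1 numbered 0 at a mean of at least 5 RPKM and 1 without members that share exon bases. Rescaling both libraries to the same RPKM total, which lowers S435D by 0.062 on the log2 scale, gave 13 of them and placed 31 members below 0. Leaving out the 11 expressed members that share exon bases left 14 of 21 members and 3 of 3 laminins below 0, by construction with fewer genes. For the counts below 0, every alternative (centring, trimmed-mean scaling, rescaling and leaving out members that share exon bases) was added after the values had been seen. Shares over all expressed genes were taken at 1.2-fold under the deposited scaling, 4.43% higher and 7.92% lower. For intervals below 1 they were 14.7% under that scaling and 27.2% when rescaled to equal RPKM totals. For the other alternatives here no such share was taken, so their counts cannot be set against all genes.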

Other observations

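Some RNAs transcribed opposite to members had a counting interval above 1, and were picked for their values. Others did not, such as RP1-142L7.5, opposite to LAMA4, with 2 reads in the S435D library and 8 in the WT library (0.238, 0.0246 to 1.19). TCFL5, opposite to COL9A3, had an interval below 1, with 1261 reads in the S435D library and 1327 in the WT library (0.904, 0.836 to 0.977). The share of genes with an interval above 1 was 8.71% among all expressed genes and 1.51% among genes with reads below that level. Intervals below 1 made up 14.7% and 2.63%. ADRM1, opposite to LAMA5, lay above 1 with 4451 reads in the S435D library and 3954 in the WT library (1.07, 1.03 to 1.12). COL4A2-AS1 had 22 reads in the S435D library and 6 in the WT library (fold 3.49, 1.37 to 10.5). COL4A2-AS2 had 87 reads in the S435D library and 54 in the WT library (1.53, 1.08 to 2.19), and CTD-2288O8.1, opposite to ITGA1, had 17 and 5 (3.23, 1.14 to 11.2). COL4A2-AS1, COL4A2-AS2 and CTD-2288O8.1 rest on few reads. Without a strand setting their reads cannot be told apart from those of COL4A2 and ITGA1 in the bases they share.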
